A study of Mus musculus with 6 samples.

Results

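Cytosolic ribosomal proteins, the protein part of the ribosomes that translate nuclear-encoded mRNAs, were followed in brown adipose tissue (BAT) of sST2-KO mice and their WT littermates. Members were taken by gene symbol: every row named Rpl or Rps with a number and at most a letter and a digit after it, the stalk proteins Rplp0, Rplp1 and Rplp2, and Rpsa, provided that the 6 libraries held at least 10 counts in sum. Pseudogene symbols that contain -ps and the Rps6k kinases do not match this pattern. The rule gave 83 genes of the 35976 rows in the count table, 50 of the large subunit (the stalk included) and 33 of the small subunit. Of 85 rows that matched by name, Rpl32l with 2 counts and Rpl10l with 0 counts lay outside the minimum, and Rpl39l with 127 and Rpl3l with 871 counts were the closest inside it. Rpl32l is annotated as a transcribed processed pseudogene.

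BAT was profiled by RNA-seq in 3 WT and 3 sST2-KO mice. All 6 mice were males of a C57BL/6J background aged 10 weeks, the nerves to their BAT had been cut, and they were kept at 10 °C for 8 h. The sST2-KO line lacks, in every cell, an intron of Il1rl1 with the stop codon of the soluble ST2 isoform, and keeps the membrane receptor ST2L from the same gene. Il1rl1 had 19, 19 and 6 counts in WT and 55, 69 and 142 counts in sST2-KO, which sums the isoforms and so cannot check the deletion.

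Libraries held 8159442 to 12874809 counts on genes. The 16 brown adipocyte markers, Ucp1 among them, were present in every library, at a summed level of 12497 to 22131 CPM (counts of a gene scaled to the size of its library) in WT and 1727 to 4702 CPM in sST2-KO. All levels below are CPM after TMM scaling, a normalisation that sets libraries to a common level over most genes. In bulk tissue, fewer cells of a type and less RNA per cell cannot be told apart, and this holds for every difference given here.

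The ribosome consists of a small subunit that reads the mRNA and a large subunit that joins amino acids, and nearly every ribosomal protein is present once per particle. Most mRNAs for these proteins begin with a cytosine followed by an unbroken run of pyrimidines, the terminal oligopyrimidine (TOP) motif, through which mTORC1 and Larp1 control their translation. Brown adipocytes depend on cytosolic ribosomes for the nuclear-encoded part of their mitochondria and on separate mitochondrial ribosomes for proteins encoded by mitochondrial DNA. A few ribosomal proteins have paralogs with narrower expression, such as Rpl3l, the form of Rpl3 found in striated muscle.

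The sequences around the annotated start show this shared feature and its exceptions. The windows below, taken from RefSeq (GRCm38.p6), hold 30 bases before the annotated start and 20 from it onward. Capitals mark the first run of a C and at least 4 further pyrimidines that begins within 10 bases of the annotated start. Other such runs in the windows are left in lower case. Rps15a and Rpl38 are shown because the run begins at the annotated base itself, Rps6 and Rplp2 because it begins shortly before it, and Rpl27a because it has the longest run. The paralogs Rpl22l1 and Rpl3l follow for comparison. Rplp0 is an example in which no such run begins within 10 bases of the annotated start, although one begins further downstream.
Rps15a (chr7:118116128-118116177, minus strand): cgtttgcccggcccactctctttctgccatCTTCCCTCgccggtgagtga
Rpl38 (chr11:114668550-114668599, plus strand): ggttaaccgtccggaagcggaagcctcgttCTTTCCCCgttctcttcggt
Rps6 (chr4:86857348-86857397, minus strand): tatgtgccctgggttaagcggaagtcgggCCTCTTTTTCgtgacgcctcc
Rplp2 (chr7:141447621-141447670, plus strand): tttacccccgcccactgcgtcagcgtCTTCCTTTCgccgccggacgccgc
Rpl27a (chr7:109519165-109519214, plus strand): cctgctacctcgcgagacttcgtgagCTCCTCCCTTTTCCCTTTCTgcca
Rpl22l1 (chr3:28805478-28805527, plus strand): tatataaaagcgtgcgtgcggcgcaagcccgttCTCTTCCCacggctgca
Rpl3l (chr17:24727796-24727845, plus strand): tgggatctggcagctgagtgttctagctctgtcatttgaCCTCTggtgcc
Rplp0 (chr5:115559437-115559486, plus strand): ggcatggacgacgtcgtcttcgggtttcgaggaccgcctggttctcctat

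A C followed by at least 4 pyrimidines, at a base within 10 of the annotated start and on the strand of the gene, was present in 38 of the 62 members with a promoter in the table (61.3%), against 34.4% of 27025 genes. With the C at the annotated base itself, be it the first base of a run or inside one that began upstream, the shares were 21.0% of members and 3.01% of genes. The match is a description of these letters and not a measured start site. Among the main members, which excludes the 6 paralogs, 34 with the run had a median log2 fold change of 0.01 and 23 without it one of 0.03, where a positive value is higher in sST2-KO.

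Taken as a whole, the family occupied a somewhat larger part of the sST2-KO libraries. It took 2.67%, 3.21% and 2.87% of all counts in WT and 3.69%, 3.23% and 3.55% in sST2-KO, so that the lowest sST2-KO share lay just above the highest WT share. The means were 2.92% ± 0.27 in WT and 3.49% ± 0.24 in sST2-KO (SD, n = 3), a ratio of 1.20. Counting error is small here, with an exact (Clopper-Pearson) 95% interval of 2.66% to 2.68% for the first WT library, which covers counting error only. With the mitochondrially encoded genes left out of the total, the means were 3.41% and 4.00%.

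After TMM scaling the groups did not separate. The summed level was 26883, 35096 and 34807 CPM in WT and 33123, 31280 and 31290 CPM in sST2-KO, with means of 32262 ± 4660 and 31898 ± 1061 (SD, n = 3) and a ratio of 0.989. The 3 sST2-KO libraries lay inside the range of the WT libraries, and the first WT library was lower than the other 5. The TMM factors were 0.825 to 0.996 in WT and 1.03 to 1.14 in sST2-KO. The counts of the large subunit over those of the small subunit were 1.35 ± 0.03 in WT and 1.33 ± 0.01 in sST2-KO.

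**Figure D1:**
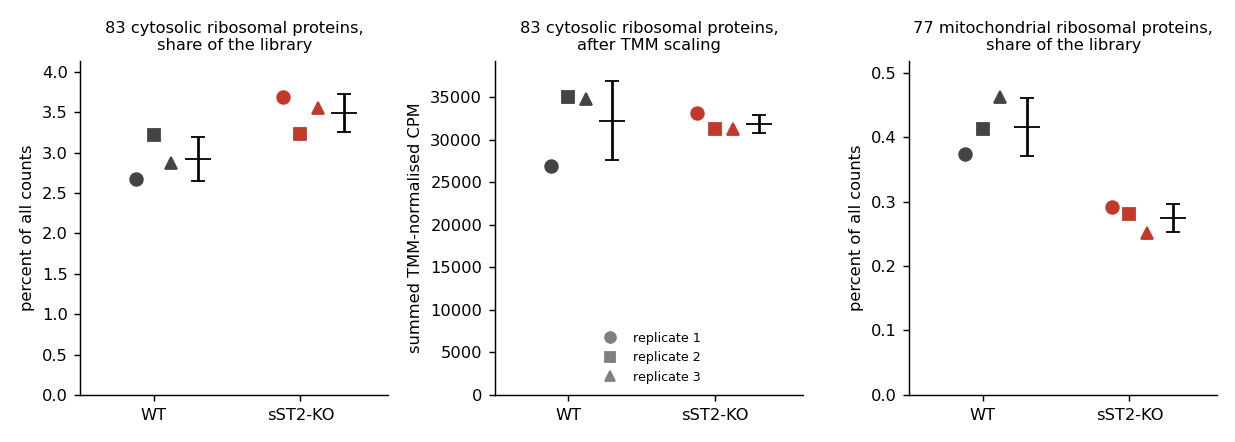
Share of all counts (percent) and summed TMM-normalised CPM of the 83 cytosolic ribosomal proteins, and share of counts of the 77 mitochondrial ribosomal proteins, in each library (symbols mark replicates, bars the mean ± SD, n = 3). The cytosolic share is 1.20-fold higher in sST2-KO before scaling and 0.989-fold after it, whereas the mitochondrial share lies lower in all 3 sST2-KO libraries.

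Gene by gene, the test passed 1 member, the muscle paralog Rpl3l. In edgeR's quasi-likelihood test over the 14542 genes that passed its filter on low counts, with Benjamini-Hochberg adjustment over all of them, 1 of the 83 members was higher at an adjusted p under 0.05 and 0 were lower. Over all genes tested the shares were 10.5% higher and 9.1% lower. Rpl3l was also the only call over 2-fold, where 9.04% of all genes were called higher and 7.1% lower. At an unadjusted p under 0.05 there were 5 members, namely Rpl3l and Rpl22l1 higher and Rpl36, Rps4l and Rpl7l1 lower, and DESeq2 called 1 member higher (Rpl3l) and 1 lower (Rpl36).

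The log2 fold changes gathered closely around 0. Their median was 0.01, with 43 positive and 40 negative, beside a median of 0.03 over all genes tested. Of the 77 main members, 75 lay within 0.5 of 0 on the log2 scale and the SD of their log2 fold changes was 0.20. Among the 1731 other genes whose mean log2 CPM fell in the same range, from 6.59 to 10.07, 47.8% lay within 0.5, the SD was 1.18 and 27.8% were called at an adjusted p under 0.05. The 95% interval of the fold change stayed within 2-fold in both directions for 74 of the 77 main members, and Rpl36, Rps29 and Rplp2 were the others.

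The split of directions depended on the scaling. With total counts in place of TMM factors, 73 of 83 members were positive and their median was 0.28, and the median of all genes was 0.29. With offsets for GC content and transcript length 69 of 83 were positive and the median was 0.20, against 0.03 for all genes, and 3 members were called higher (Rpl3l, Rpl22l1 and Rps10).

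**Figure D2:**
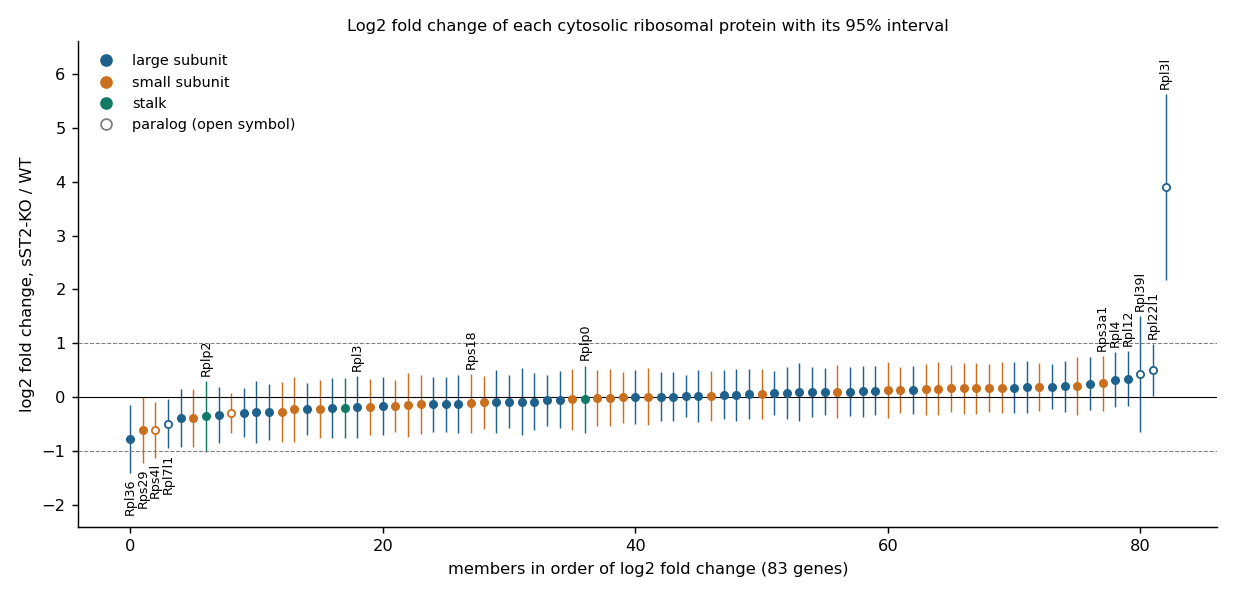
Log2 fold change (sST2-KO over WT) of the 83 members in rising order, with the 95% interval from edgeR's quasi-likelihood fit; colours give the subunit, open symbols the paralogs, and dashed lines a 2-fold change. Members run from -0.77 (Rpl36) to 0.51 (Rpl22l1), and Rpl3l stands apart at 3.90.

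The stalk proteins Rplp0, Rplp1 and Rplp2 form the arm of the large subunit that recruits and activates translation factors. Rplp0 was the internal control of the study's qPCR. It was measured at 770, 1169 and 1153 CPM in WT and at 989, 926 and 1099 CPM in sST2-KO. The sST2-KO libraries lay between the WT libraries, the fold change was 0.975 with a 95% interval of 0.634 to 1.499, and the adjusted p was 0.94. Rplp1 had 513, 707 and 753 CPM in WT and 558, 548 and 611 CPM in sST2-KO (log2 fold change -0.20 ± 0.24 SE, adjusted p = 0.59). Rplp2, its partner in the stalk dimers, had 446, 713 and 650 CPM in WT and 553, 501 and 362 CPM in sST2-KO (log2 fold change -0.35 ± 0.28 SE, adjusted p = 0.40). The groups overlapped for all 3 stalk proteins.

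Of the other members of the large subunit, Rpl5 and Rpl11 join the 5S RNA in a particle that can bind Mdm2 and so stabilise p53. Rpl5 had 429, 516 and 482 CPM in WT and 597, 557 and 548 CPM in sST2-KO. Every sST2-KO library lay above every WT library, but the difference was 0.25 ± 0.21 (SE) on the log2 scale with an adjusted p of 0.42. Rpl11 had 335, 467 and 471 CPM in WT and 428, 395 and 351 CPM in sST2-KO, with overlapping groups (log2 fold change -0.12 ± 0.23 SE).

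Rpl4 and Rpl12 had the highest log2 fold changes among the main members. Rpl4, which lines the exit tunnel for the growing chain, had 637, 755 and 712 CPM in WT and 871, 873 and 889 CPM in sST2-KO (log2 fold change 0.32 ± 0.22 SE, adjusted p = 0.32). Rpl12, at the base of the stalk, had 218, 322 and 275 CPM in WT and 348, 334 and 356 CPM in sST2-KO (0.35 ± 0.22, adjusted p = 0.29). The sST2-KO libraries were above all WT libraries for both genes, without passing the test. Rpl10 and Rpl22 showed the same separation, with log2 fold changes of 0.19 and 0.20. Rpl3, part of the peptidyl transferase centre, had a log2 fold change of -0.18 ± 0.24 (SE) with overlapping groups. Those of Rpl13a, Rpl41, Rpl39 and Rpl38 were 0.05, -0.20, 0.10 and -0.28, also with overlapping groups.

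Rpl36 had the lowest log2 fold change of all members. It had 199, 339 and 338 CPM in WT and 200, 172 and 141 CPM in sST2-KO, and the first WT library lay within the sST2-KO range. The log2 fold change was -0.77 ± 0.27 (SE), and the adjusted p was 0.084 in edgeR and 0.029 in DESeq2. Without the first WT library edgeR called Rpl36 (-0.99, adjusted p = 0.039), but 0 members were called lower with any other library left out. With total counts, and with offsets for GC content and transcript length, 0 members were lower at an unadjusted p under 0.05 in edgeR. Rpl36 (chr17:56919155-56921505, GRCm39, plus strand) shares exon sequence with Lonp1, the mitochondrial matrix protease, on the opposite strand, and whether strand was used in counting is not given in the sources used here. Lonp1 itself had 233 ± 76 CPM in WT and 113 ± 30 CPM in sST2-KO (SD, n = 3; adjusted p = 0.060 in edgeR), and the part of its reads in the count of Rpl36 was not tested.

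In the small subunit, Rps29, a protein of the head of the subunit, had 126, 234 and 222 CPM in WT and 131, 118 and 133 CPM in sST2-KO. As with Rpl36, the first WT library resembled the sST2-KO libraries. The log2 fold change was -0.61 ± 0.26 (SE) with an adjusted p of 0.14, and leaving that library out gave -0.85 with an adjusted p of 0.036 in edgeR. Rps29 was not called with any other library left out, with total counts or with the GC and length offsets. Rps6, the substrate of the S6 kinases below mTORC1, had 633, 704 and 729 CPM in WT and 912, 765 and 714 CPM in sST2-KO, with overlapping groups (0.21 ± 0.23, adjusted p = 0.54). Rpsa, also known as the laminin receptor, was the most abundant member in counts, with a mean of 1125 ± 217 CPM in WT and 1022 ± 35 CPM in sST2-KO (SD, n = 3). Rps3a1 had 719, 765 and 731 CPM in WT and 941, 873 and 832 CPM in sST2-KO, the highest log2 fold change of the small subunit (0.26 ± 0.22, adjusted p = 0.43).

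Rps27a, which is made as a fusion with ubiquitin, had a log2 fold change of 0.19 ± 0.19 (SE) and groups that did not overlap. Rps3, Rps14, Rps18, Rps19, Rps27 and Rps2 had log2 fold changes of 0.14, -0.13, -0.11, -0.15, -0.00 and -0.22, all with overlapping groups. Of 9 members that are mutated in Diamond-Blackfan anaemia (Rps7, Rps10, Rps19, Rps24, Rps26, Rps28, Rps29, Rpl26 and Rpl35a), 4 were positive and 5 negative, and 0 passed the test in edgeR, in DESeq2 or at an unadjusted p under 0.05. Levels between genes were compared per kilobase of annotated exon, which depends on the isoforms annotated. Rplp1, Rps3a1 and Rps2 were highest, with 1048, 703 and 512 CPM per kilobase, and the paralogs Rpl39l and Rpl3l were lowest, with 1.76 and 7.99 CPM per kilobase.

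Over the whole family, 15 members were higher in all 3 sST2-KO libraries than in any WT library and 3 were lower, where such separation was seen for 21.8% of all genes tested in the higher direction and 19.7% in the lower. The 3 lower ones were the paralogs Rps4l, Rpl7l1 and Rps27l. Of the 15 higher ones, 13 were main members, and their log2 fold changes ran from 0.16 (Rps4x) to 0.35 (Rpl12).

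Members also differed among themselves within a library, a comparison without any scaling between libraries that was chosen after the values were seen. The median log2 CPM of the main members was 8.32, 8.72 and 8.66 in WT and 8.59, 8.45 and 8.49 in sST2-KO, and each member was expressed relative to it. On this scale 26 of the 77 main members were higher in all sST2-KO libraries than in any WT library and 10 were lower, beside 18.6% and 18.1% of all genes tested when the same median was subtracted. Subtracting the members' own median removes variation that they share, which it need not do for other genes. The shares are therefore not compared like for like. Rpl36 and Rps29 were again lowest, at -0.69 and -0.51, and after the centring their groups did not overlap.

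The order of the members varied with the base composition and the length of their transcripts. Across the 77 main members the log2 fold change had a Spearman correlation of -0.44 with transcript GC content, as a description across genes that share the same 6 libraries, and over 13316 genes it was -0.12. In the 26 members of lowest GC content (41.3% to 49.0%) the median log2 fold change was 0.11 and 20 were positive, and in the 26 of highest GC content (52.8% to 58.6%) it was -0.10 and 8 were positive. By library, the members' deviations from their own means had a Spearman correlation with GC content of -0.27, 0.43 and 0.48 in WT and of -0.48, -0.27 and -0.28 in sST2-KO. For GC content the first WT library thus had the sign of the sST2-KO libraries. Coding length had a Spearman correlation of 0.31 with the log2 fold change across the same members, and transcript length one of 0.29. Over 13316 genes that of transcript length was 0.09. With coding length, the correlations by library were -0.06, -0.26 and -0.33 in WT and 0.23, 0.40 and 0.19 in sST2-KO. The part of base composition and length in the members' differences was not tested beyond the offsets given above.

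**Figure D3:**
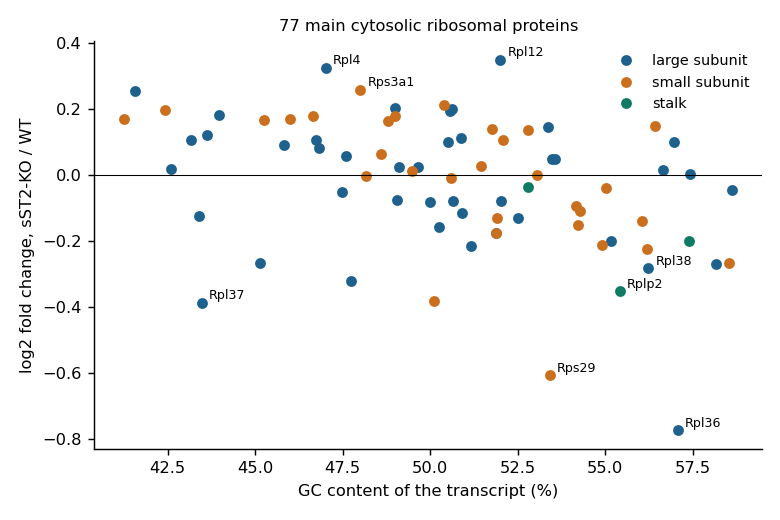
Log2 fold change (sST2-KO over WT) of the 77 main members against the GC content of their transcripts (percent), coloured by subunit. Members of lowest GC content lie mostly above 0 (20 of 26) and those of highest GC content mostly below it (8 of 26 above), with Rpl36 and Rps29 lowest.

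Paralogs were compared with their main copy inside each library, as the log2 ratio of CPM with 0.5 added, which does not rest on the scaling. With 3 against 3 libraries the exact two-sided permutation test cannot give a p below 0.1, and over the 6 pairs the adjusted p was at least 0.20. Rpl10l, the testis paralog of Rpl10, had 0 counts in every library and no ratio.

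Rpl3l relative to Rpl3 was the pair that differed most. The log2 ratio was -7.22, -9.09 and -9.08 in WT and -5.27, -5.77 and -3.47 in sST2-KO, a mean difference of 3.62 with groups that did not overlap (exact permutation p = 0.1). In counts, Rpl3l reached 0.58%, 0.12% and 0.12% of Rpl3 in WT and 2.52%, 1.76% and 8.91% in sST2-KO, so Rpl3 remained the major form in every library.

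The other pairs differed less, and in both directions. Rpl22l1, a paralog of Rpl22 with known roles in T cell development, had 60.4, 40.6 and 45.4 CPM in WT and 65.7, 63.0 and 79.5 CPM in sST2-KO. All sST2-KO libraries were higher (log2 fold change 0.51 ± 0.21 SE, adjusted p = 0.12 in edgeR), but its ratio to Rpl22 overlapped between groups, with a mean difference of 0.31 (exact permutation p = 0.3). Rps4l had 28.0, 33.0 and 43.6 CPM in WT and 19.7, 26.2 and 23.0 CPM in sST2-KO, and its ratio to Rps4x was lower by 0.74 without overlap (exact permutation p = 0.1). Rpl7l1, a nucleolar relative of Rpl7 that acts in ribosome assembly, had 88.2, 98.7 and 111 CPM in WT and 58.5, 81.5 and 72.4 CPM in sST2-KO, and its ratio to Rpl7 was lower by 0.58 without overlap (exact permutation p = 0.1).

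Rps27l, a p53-induced paralog of Rps27, had 82.0, 86.7 and 97.4 CPM in WT and 71.4, 70.6 and 75.8 CPM in sST2-KO. Every sST2-KO library was lower (log2 fold change -0.29 ± 0.16 SE, adjusted p = 0.24 in edgeR), while the ratio to Rps27 overlapped, with a mean difference of -0.30. Rpl39l, the testis paralog of Rpl39, stayed between 1.04 and 3.46 CPM in all libraries, with overlapping groups for its level and its ratio.

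**Figure D4:**
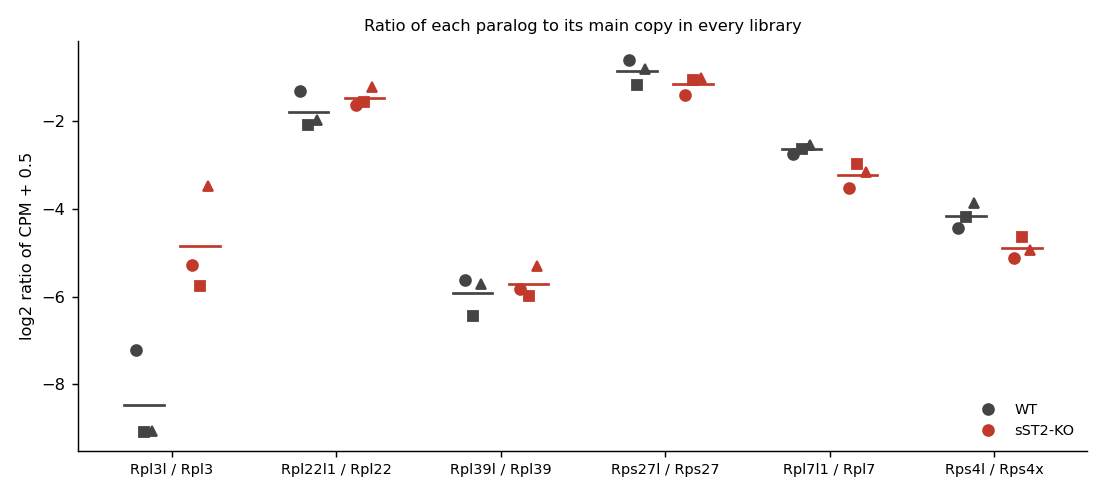
Log2 ratio of each paralog to its main copy (CPM + 0.5) in every library; symbols mark replicates, short lines the group means. Rpl3l / Rpl3 is higher in sST2-KO, Rpl7l1 / Rpl7 and Rps4l / Rps4x are lower without overlap, and the other 3 pairs overlap.

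Rpl3l itself (chr17:24946751-24955119, GRCm39, plus strand) had 34, 10 and 7 counts in WT and 238, 93 and 489 counts in sST2-KO. These are 3.17, 0.94 and 0.86 CPM in WT and 16.6, 11.0 and 48.3 CPM in sST2-KO, with no overlap and with a wide spread inside sST2-KO. The fold change was 14.9 with a 95% interval of 4.52 to 49.1 and an adjusted p of 0.017. Without the second or the third WT library the adjusted p was 0.057 and 0.076 in edgeR, with log2 fold changes of 3.60 and 3.61, so the call was lost in both fits. Calls over all genes tested also dropped there, from 1524 higher and 1323 lower with all libraries. They were 393 and 483 without the second WT library and 36 and 22 without the third.

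Markers of skeletal muscle moved with Rpl3l. All 20 were positive, 19 separated the groups without overlap and 4 were called in edgeR (Casq1, Myl1, Pvalb and Mb). DESeq2 called 9 of them higher, and 17 were higher at an unadjusted p under 0.05 in edgeR. The summed level of the 20 markers was 1762, 163 and 104 CPM in WT and 8763, 4643 and 19598 CPM in sST2-KO. The 6 libraries had the same order by Rpl3l and by the muscle sum, from the third sST2-KO library down to the third WT library. Divided by that sum and multiplied by 1000, the CPM of Rpl3l was 1.80, 5.79 and 8.29 in WT and 1.89, 2.38 and 2.46 in sST2-KO. The part of muscle RNA in the rise of Rpl3l was not tested.

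The mitochondrial ribosomal proteins (Mrpl and Mrps genes) are the family most like these, and most of its members fell. All 77 had a negative log2 fold change, 41 fell at an adjusted p under 0.05, 23 of them by more than 2-fold, and 66 separated the groups without overlap. Mrps2, the protein with the lowest p, was at 54.2, 60.4 and 69.9 CPM in WT and at 25.0, 25.0 and 20.7 CPM in sST2-KO (adjusted p = 0.012), and Mrpl34, Mrps36 and Mrpl12 fell by 2.19, 1.80 and 1.67 on the log2 scale. The counts of cytosolic over mitochondrial ribosomal proteins were 7.16, 7.79 and 6.20 in WT and 12.6, 11.5 and 14.2 in sST2-KO, a ratio 1.81-fold higher in sST2-KO that no scaling between libraries enters. The lowest sST2-KO ratio was above the highest WT ratio. With total counts in place of TMM factors 74 of the 77 were negative, 24 fell and the median was -0.54. The number of Mrp genes that fell was 0 without the third WT library and 12 without the second, with medians of -0.64 and -0.84, and 15 to 26 when an sST2-KO library was left out. Brown adipocyte markers moved with this list, 11 of 16 being called lower and 1 higher (Lhx8), and their part in the ratio was not tested.

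**Figure D5:**
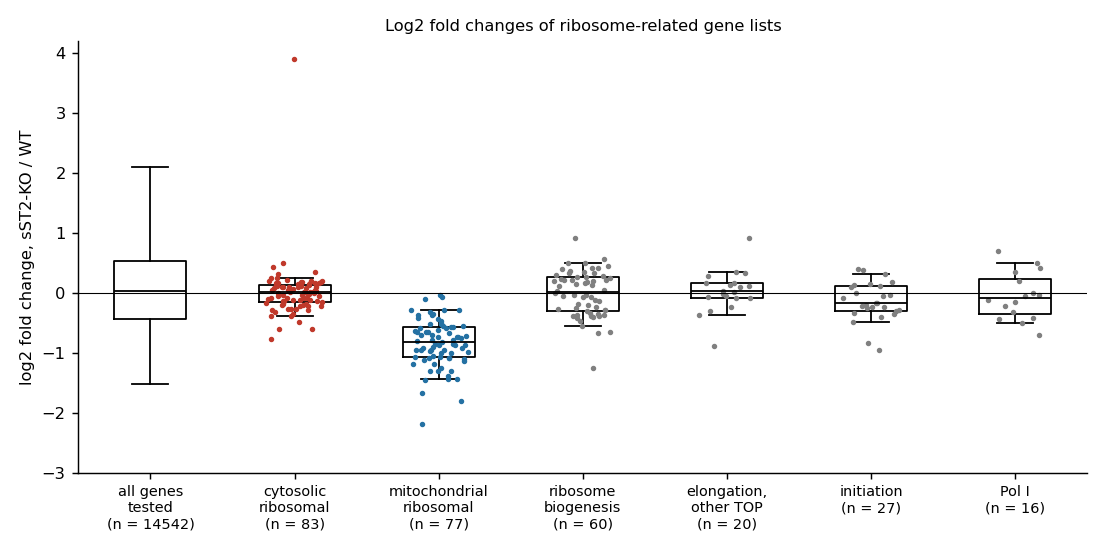
Log2 fold changes (sST2-KO over WT) of all genes tested and of ribosome-related lists (points are genes, boxes the quartiles with the median, whiskers the 5th and 95th percentiles; n is the number tested). Cytosolic ribosomal proteins centre on 0.01 with Rpl3l apart, and all 77 mitochondrial ribosomal proteins lie below 0, with a median of -0.81.

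Fau, Rack1 and Rpl36al are ribosomal proteins outside the name pattern, and none of these was called in edgeR. Fau and Rack1, both of the small subunit, had log2 fold changes of -0.00 and 0.02, and Rpl36al, a copy of Rpl36a, one of 0.24 (adjusted p = 0.44 in edgeR).

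Genes that build the ribosome were split between the directions. The calls in this and the following lists depend on the WT libraries, since without the third WT library 36 genes of the whole table were called higher and 22 lower, against 1524 and 1323 with all libraries. Of 60 ribosome biogenesis factors tested, 30 were positive and 30 negative, 1 rose (Rrp1b, log2 fold change 0.92) and 1 fell (Nop10 of the H/ACA particles, -1.26), with a median of 0.01. Npm1, the nucleolar chaperone, had 200, 199 and 186 CPM in WT and 274, 277 and 317 CPM in sST2-KO (0.57 ± 0.18 SE, adjusted p = 0.067 in edgeR). Of 16 genes of RNA polymerase I and its factors, 0 passed the test in edgeR and 2 were called lower by DESeq2. Polr1d and Rrn3 were lowest in p, with log2 fold changes of -0.70 and -0.50 (adjusted p = 0.053 and 0.057). At an unadjusted p under 0.05 these 2 were joined by Taf1b (0.69, adjusted p = 0.082).

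Other genes of translation and its control gave few calls. Of 20 elongation factors and other TOP mRNAs, 1 rose (Nap1l1, a histone chaperone, 0.92) and 1 fell (Eif3l, -0.89), with a median of 0.03. Of 27 initiation factors, 0 rose (0 also in DESeq2 and at an unadjusted p under 0.05) and 2 fell, both subunits of the exchange factor eIF2B (Eif2b4 by 0.95 and Eif2b3 by 0.84 on the log2 scale), with a median of -0.17. Of 26 genes of mTORC1 and TOP mRNA control, 1 rose and 3 fell, 19 were negative and the median was -0.36. The kinase Mtor had 120, 138 and 184 CPM in WT and 55.0, 60.2 and 34.7 CPM in sST2-KO (-1.56 ± 0.27 SE, adjusted p = 0.015), its partner Mlst8 and the inhibitor Tsc2 fell by 0.92 and 0.74 on the log2 scale, and Ddit4l rose by 4.62 from under 1 CPM in each WT library.

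Of 19 p53 targets, 5 rose and 0 fell (7 and 0 in DESeq2 and at an unadjusted p under 0.05), among them Btg2, Pmaip1, Eda2r and Tnfrsf10b with log2 fold changes of 1.31, 2.73, 2.86 and 1.06. Among qPCR reference genes that are not members, Actb rose by 1.19 and Sdha of the respiratory chain fell by 1.80 on the log2 scale, and Hprt had a log2 fold change of 0.55 with an adjusted p of 0.057 in edgeR. Beside these, Rplp0, Rps18 and Rpl13a, members that serve as reference genes, had log2 fold changes of -0.04, -0.11 and 0.05 under TMM scaling, and of 0.24, 0.16 and 0.32 under total counts.

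Markers of other cell types gave more calls than the ribosomal proteins. Of 12 T cell markers 11 rose, of 20 genes of dividing cells 19 rose, and of 14 macrophage and 12 neutrophil markers 4 each rose. All 5 erythrocyte markers tested fell. Of 12 general adipocyte markers all were negative, 8 separated the groups without overlap and 2 fell in edgeR (7 in DESeq2). Of 16 brown adipocyte markers 11 fell and 1 rose (Lhx8, log2 fold change 1.85). Of 12 endothelial markers 1 rose and 1 fell, of 12 fibroblast markers 1 rose, and of 4 B cell markers 0 passed the test in edgeR, in DESeq2 or at an unadjusted p under 0.05. The part of these cell types in the levels of the ribosomal proteins was not tested.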

How the data were processed

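RNA-seq of BAT from 3 WT and 3 sST2-KO mice was deposited as counts per gene. Per the labels and the study's methods, the authors made these counts with HISAT2 2.2.1 (mm39) and htseq-count, with FastQC 0.12.1 for read quality; the htseq-count version and strand setting are not given in the sources used here. From the deposited counts, edgeR 4.0.16 (R 4.3.3; filterByExpr, TMM, quasi-likelihood test, Benjamini-Hochberg over all genes tested) gave the fold changes, and DESeq2 1.42.0 was an alternative. The test was checked on simulated data. Members and gene lists were chosen with earlier results of these data known. Genes named are a fixed set of members, the 5 largest rises and falls among members at an adjusted p under 0.05, the 3 highest per length, those at the count minimum, and up to 4 of each other list by lowest p; further genes (Rpl36, Rps29, Rpl4, Rpl12, Rps10, those that mark Diamond-Blackfan anaemia, and Lonp1) were chosen after their values were seen.

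Gene models came from GENCODE vM39 (GRCm39), with all 83 members matched by symbol, and start windows from RefSeq (GRCm38.p6) for 62. BLAST 2.17.0 found at least 1 annotated pseudogene copy at 90% identity or more over at least 50% of the coding sequence for 78 members (median 9), which counting could split. The exons of 61 members overlap another gene. Protein identity of the paralogs was not analysed here. Mitochondrially encoded genes were found by their names. The labels share replicate numbers between groups, but same-numbered samples did not deviate together (correlations -0.06, 0.21 and -0.31). Replicates are labelled as separate samples, and p-values measure the spread between them. Library pairs within groups differed by more than counting noise. Some genes of the lists are not reported here.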

Additional observations from a re-analysis of the deposited data

How the results depend on the processing

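In each alternative run, at most 3 of 83 members were called, both directions together. The median log2 fold change of the members was 0.01 and reversed to -0.0074 in DESeq2 and -0.0075 with RLE factors; it was 0.28 with total counts and 0.20 with offsets for GC content and transcript length, and it ran from -0.11 (without the first WT library) to 0.065 when libraries were left out in turn. Members called higher were 1, falling to 0 with at least 10 counts in every sample, where Rpl3l was not among the 82 members tested because a WT library held 7 counts, and to 0 in the fit with the replicate block, at any fold and over 2-fold alike, and rising to 3 with the GC and length offsets; over left-out libraries they ran from 0 to 1. Members called lower were 0, and 1 in DESeq2 (Rpl36), with 0 to 2 over left-out libraries. In the replicate block fit 0 of all genes tested were called, and the samples share only a number; Rpl3l had an adjusted p of 0.068 there. Its log2 fold change moved from 3.02 to 4.78 over left-out libraries. The share of counts differed by 0.574 percentage points, and by 0.452 to 0.721 over left-out libraries. The share of members with such a C and pyrimidines was 21.0% at the annotated base only and 80.6% within 20 bases.

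Signs reversed for some named members, among them Rplp2 and Rpl38, reported above at -0.35 and -0.28, with the cause not tested. With total counts the log2 fold change was 0.24 for Rplp0, 0.079 for Rplp1, 0.14 for Rpsa, 0.14 for Rps14, 0.12 for Rps19, 0.16 for Rps18, 0.16 for Rpl11, 0.077 for Rpl41, 0.093 for Rpl3, 0.27 for Rps27 and 0.052 for Rps2. With the GC and length offsets it was 0.16 for Rplp0, 0.22 for Rplp1, 0.088 for Rplp2, 0.11 for Rpsa, 0.22 for Rps14, 0.035 for Rps19, 0.28 for Rps18, 0.036 for Rpl11, 0.18 for Rpl38, 0.20 for Rpl41, 0.30 for Rps27 and 0.052 for Rps2. Rps27 was 0.0019 with no filter, 0.025 with at least 10 counts in every sample and 0.010 with the replicate block. Over left-out libraries the ranges were -0.21 to 0.060 for Rplp0, -0.26 to 0.035 for Rps18, -0.067 to 0.13 for Rpl13a and -0.17 to 0.14 for Rps27.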
